A study of Mus musculus with 10 samples.

Results

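The CC chemokines described here are Ccl2, Ccl3, Ccl4, Ccl6, Ccl7, Ccl8, Ccl9, Ccl17, Ccl20 and Ccl22, measured in the lungs of mice that inhaled cigarette smoke or room air. They were chosen by name, as every probe whose gene name, or whose current symbol found through its accession, was 1 of these 10, and this gave 11 probes of 10 genes among the 41174 probes of 27670 genes on the array. Whole lungs of female BALB/c mice, 6 to 8 weeks old on arrival, were hybridized to whole-genome Agilent microarrays, with 1 array for each mouse. The 5 mice with smoke were held in a whole-body chamber with the mainstream smoke of 12 filterless reference cigarettes per exposure, in 2 exposures of 50 minutes a day on 5 days per week for 8 weeks, and the 5 control mice breathed room air over the same 8 weeks. On each array the red channel held the lung RNA and the green channel a reference RNA that the labels do not describe. Each value is the log2 ratio of lung over reference, so that 1 unit is a 2-fold difference and 0 is a signal equal to that of the reference. Since each probe has its own brightness, ratios were compared between arrays for a probe and not between probes.

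CC chemokines are small secreted proteins that guide leukocytes by binding G protein-coupled receptors of the Ccr family. Ccl2 and Ccl7 recruit monocytes through Ccr2, Ccl3 and Ccl4 attract macrophages and lymphocytes, Ccl6 and Ccl9 act through Ccr1, mouse Ccl8 signals through Ccr8, Ccl17 and Ccl22 share Ccr4, and Ccl20 is the chemokine ligand of Ccr6. In the lung they are made by macrophages, dendritic cells and epithelium, several of them under the control of the transcription factor NF-kB, and they take part in the recruitment of monocytes, lymphocytes and dendritic cells to inflamed airways.

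The lung of the first room air mouse, called room air 1, stood apart from the other 4 room air lungs, and the results are therefore given with and without it. In room air 1, 1.22% of all genes lay over 1 log2 unit from the mean of the other room air arrays, against 0.123% to 0.329% in room air 2 to 5. Its correlation with the mean of the others over all genes was 0.96, against 0.982 to 0.987 for room air 2 to 5. Genes over 1 log2 unit above the other room air lungs made up 1.19% of all genes. Among the 10 chemokines there were 8 such genes, all except Ccl6 and Ccl22, and room air 1 was the highest of the 5 room air arrays for all 10, where it was the highest for 25% of all genes.

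Directions follow the group under which each scanner file was deposited. In the authors' table of processed values the groups were exchanged: all 282045 of its values were equal, within 0.0001, to those computed from the same-numbered array of the other group, and 282 were equal to those of their own sample. Every direction of the ratios given here would be turned if the arrays were labelled as in that table. The values of that table average both channels, and in them the difference of Ccl20 kept its sign. As a check of the labels, 3 genes known to respond to tobacco smoke were examined, chosen after their values were seen. Cyp1b1, a cytochrome P450 induced through the aryl hydrocarbon receptor, had log2 ratios of -1.36, -1.59, -2.07, -1.46 and -1.58 in room air 1 to 5 and 1.61, 1.60, 1.35, 1.25 and 1.45 in smoke 1 to 5. All 5 arrays deposited as smoke lay above all 5 deposited as room air, room air 1 included. The difference was 1.96 for Ahrr, the repressor of that receptor, and 2.08 for Nqo1, a quinone reductase, again with no overlap between groups.

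With all 10 arrays, Ccl6, Ccl8 and Ccl9 were higher with smoke (3 of 10 chemokines at a Benjamini-Hochberg adjusted p under 0.05 in limma). Of all 27669 genes tested, 8.21% passed in either direction, 4.94% as higher and 3.27% as lower with smoke. No chemokine passed as lower (limma, 0 of 10, and 0 at an unadjusted p under 0.05). The median difference of the 10 genes was 1.16 log2 units, and 9 of the 10 differences were above 0, where the median over all genes was -0.0042 and 48.1% of genes had a difference above 0. For 2 of the 10, Ccl6 and Ccl9, every smoke lung lay above every room air lung, which held for 4.59% of all genes.

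Without room air 1, Ccl2, Ccl3, Ccl4, Ccl7 and Ccl17 also passed, so that 8 of 10 were higher with smoke, against 6.21% of all genes. Every smoke lung then lay above every remaining room air lung for 9 of 10, all except Ccl20, against 6.85% of all genes. The 9 include Ccl22, which was not well above background in any smoke lung. The median difference of the 10 became 1.45, beside -0.004 over all genes. Room air 1 was left out because it stood apart, and it did so in most of these genes. The adjusted p-values without it therefore depend on that choice and describe the remaining arrays only. These are whole-lung samples, in which more cells of a type and more RNA per cell cannot be told apart.

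**Figure D1:**
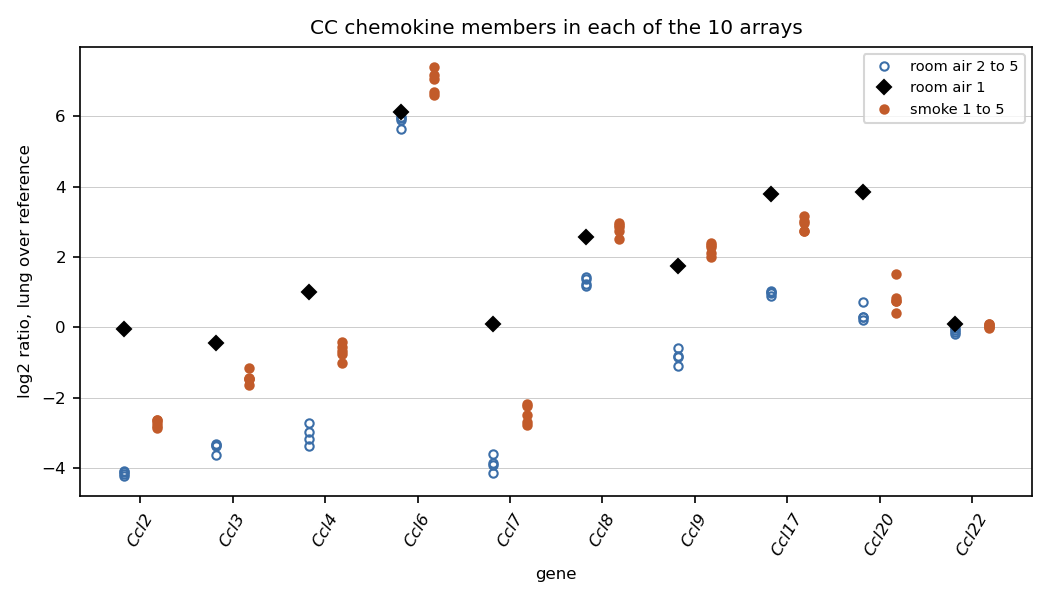
Log2 ratio of lung over reference (vertical axis) for each of the 10 CC chemokines (horizontal axis) in each array; open circles are room air 2 to 5, diamonds room air 1 and filled circles smoke 1 to 5. For Ccl2, Ccl3, Ccl4, Ccl7, Ccl17 and Ccl20 the diamond lies above every smoke lung, while the open circles lie close together and, except for Ccl20, below every smoke lung.

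The plot of log2 ratios by array shows room air 2 to 5 close together, the smoke lungs as another group, and, in 8 of the 10 genes, room air 1 more than 1 log2 unit above the other room air lungs. Room air 1 was above every smoke lung for 7 of the 10, the 6 genes with a wide gap and Ccl22, where this held for 24.7% of all genes.

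The ligands of Ccr2 gave no call with all arrays. Ccl2, the main chemoattractant of monocytes, had log2 ratios of -0.035, -4.16, -4.08, -4.11 and -4.22 in room air 1 to 5 and -2.80, -2.62, -2.73, -2.85 and -2.63 in smoke 1 to 5. Room air 1 alone was near the level of the reference, the other room air lungs were the lowest of all, and the smoke lungs lay between, with no overlap between the smoke lungs and room air 2 to 5. The difference was 0.59 ± 0.70 (SE) with all arrays (limma adjusted p = 0.781) and 1.42 ± 0.061 without room air 1 (limma adjusted p = 2.00e-07), a 2.67-fold change. The Ccl2 probe was printed in 10 spots on each array, which were averaged, and every other chemokine probe in 1 spot. Without room air 1 the SD of Ccl2 was 0.060 over 4 room air lungs and 0.10 over 5 smoke lungs, and with it the SD of room air was 1.84.

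Ccl7, a second monocyte chemoattractant that also binds Ccr1 and Ccr3, was measured by 2 probes. The brighter one gave 0.094, -3.93, -4.15, -3.86 and -3.61 in room air 1 to 5 and -2.48, -2.25, -2.68, -2.78 and -2.18 in smoke 1 to 5. The other gave 0.30, -3.47, -3.77, -3.43 and -3.32 in room air and -2.19, -1.92, -2.46, -2.30 and -2.02 with smoke. In both probes room air 1 was the highest array and the smoke lungs lay above room air 2 to 5 without overlap. The brighter probe differed by 0.62 ± 0.68 with all arrays (limma adjusted p = 0.763) and by 1.41 ± 0.14 without room air 1 (limma adjusted p = 8.51e-05, 2.66-fold); for the dimmer one the values were 0.56 and 1.32. Room air 1 exceeded the mean of the other room air lungs by 4.11 log2 units for Ccl2 and by 3.98 for Ccl7.

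Ccl8, a monocyte and T cell attractant that in the mouse signals through Ccr8, was called with and without room air 1. Its log2 ratios were 2.56, 1.37, 1.18, 1.24 and 1.44 in room air 1 to 5 and 2.92, 2.86, 2.75, 2.52 and 2.96 in smoke 1 to 5. Room air 1 reached the range of the smoke lungs, just above smoke 4, and the other room air lungs were more than 1 log2 unit below the lowest smoke lung. Ccl8 rose by 1.24 ± 0.23, or 2.37-fold (limma adjusted p = 0.00639), and by 1.49 ± 0.093, or 2.82-fold, without room air 1 (limma adjusted p = 2.58e-06).

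Ccl3 (MIP-1 alpha), a product of macrophages, had log2 ratios of -0.43, -3.36, -3.62, -3.31 and -3.39 in room air 1 to 5 and -1.65, -1.14, -1.46, -1.46 and -1.45 in smoke 1 to 5. Its close relative Ccl4 (MIP-1 beta) had 1.02, -3.16, -3.38, -2.97 and -2.73 in room air and -1.01, -0.40, -0.66, -0.76 and -0.56 with smoke. For both, room air 1 was the highest of the 10 arrays, the 5 smoke lungs came next and room air 2 to 5 were lowest, without overlap between these sets. The difference for Ccl3 was 1.39 ± 0.51 with all arrays (limma adjusted p = 0.159) and 1.99 ± 0.098, a 3.96-fold change, without room air 1 (limma adjusted p = 4.83e-07). Ccl4 differed by 1.56 ± 0.70 (limma adjusted p = 0.266) and, without room air 1, by 2.38 ± 0.14 (limma adjusted p = 1.90e-06), a 5.21-fold change. The excess of room air 1 over the other room air lungs was 2.99 for Ccl3 and 4.08 for Ccl4, in each case more than the difference between smoke and room air 2 to 5.

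Both ligands of Ccr1 with no close human counterpart, Ccl6 and Ccl9, were higher in every smoke lung than in any room air lung. Ccl9 (MIP-1 gamma), a product of macrophages and other myeloid cells, had log2 ratios of 1.74, -0.83, -0.81, -1.10 and -0.59 in room air 1 to 5 and 2.12, 2.35, 2.29, 2.01 and 2.41 in smoke 1 to 5. Room air 1 was close below the lowest smoke lung, and room air 2 to 5 were the only arrays with a negative value. Ccl9 rose by 2.55 ± 0.45, or 5.86-fold (limma adjusted p = 0.00484), and by 3.07 ± 0.11, or 8.38-fold, without room air 1 (limma adjusted p = 4.61e-08). This was the largest difference in log2 ratio among the 10 chemokines in both fits. In the lung channel alone, with all arrays, the difference was 2.63 for Ccl9 and 2.68 for Ccl6.

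Ccl6 (C10), abundant in alveolar macrophages, was, with Ccl22, 1 of the 2 chemokines for which room air 1 lay close to the other controls. Its log2 ratios were 6.13, 5.88, 5.94, 5.65 and 5.98 in room air 1 to 5 and 7.05, 7.39, 6.69, 6.60 and 7.19 in smoke 1 to 5. The groups did not overlap, and room air 1 was only 0.26 log2 units above the mean of the other room air lungs. Ccl6 rose by 1.07 ± 0.15, or 2.10-fold (limma adjusted p = 0.00110), and by 1.12 ± 0.15 without room air 1 (limma adjusted p = 0.000798). At this probe both channels differed between the groups. The mean log2 intensity went from 13.79 in room air to 16.47 with smoke in the lung channel, a difference of 2.68, and from 7.87 to 9.49 in the reference channel, a difference of 1.61. For the chosen probes of the other 9 chemokines the reference channel differed by -0.12 to 0.17. The part of the reference signal in the Ccl6 ratio was not tested.

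Ccl17 (TARC), a product of dendritic cells and macrophages that attracts Ccr4-bearing T cells, had log2 ratios of 3.79, 0.90, 0.97, 1.01 and 1.04 in room air 1 to 5 and 3.03, 2.98, 2.74, 2.75 and 3.17 in smoke 1 to 5. Room air 2 to 5 lay close together, the smoke lungs lay far above them, and room air 1 was higher still. The difference was 1.39 ± 0.48 with all arrays (limma adjusted p = 0.129) and 1.95 ± 0.089 without room air 1 (limma adjusted p = 2.59e-07), a 3.88-fold change. Ccl22 (MDC), the other ligand of Ccr4, was not well above background in any smoke lung and was so in 2 of 5 room air lungs, room air 1 and 5. Its log2 ratios lay between -0.18 and 0.10 in room air and between -0.0051 and 0.091 with smoke, with an adjusted p of 0.353 and, without room air 1, 0.0991. With the lung signal so near background, no fold change is given.

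Ccl20 (MIP-3 alpha), an epithelial product that draws Ccr6-bearing dendritic cells and lymphocytes, was the 1 chemokine well above background on all 10 arrays that was called in neither fit. Its log2 ratios were 3.85, 0.30, 0.73, 0.28 and 0.20 in room air 1 to 5 and 0.84, 0.75, 1.53, 0.40 and 0.75 in smoke 1 to 5. Room air 1 was 3.47 log2 units above the mean of the other room air lungs and far above every smoke lung, and among the remaining arrays room air 3 lay within the range of the smoke lungs. The difference was -0.22 ± 0.61 with all arrays (limma adjusted p = 0.927) and 0.48 ± 0.19 without room air 1 (limma adjusted p = 0.193).

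**Figure D2:**
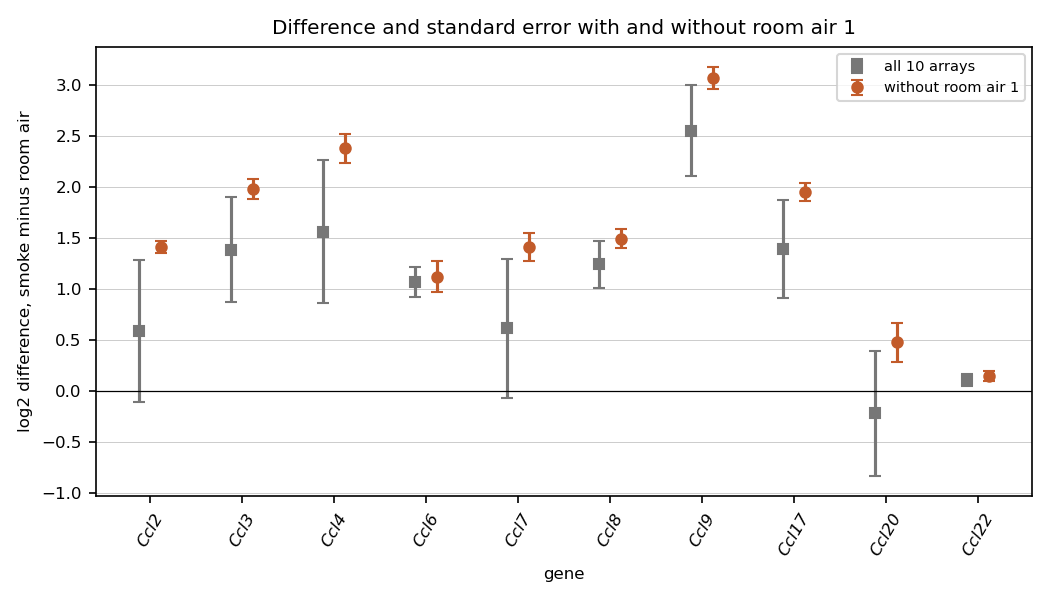
Log2 difference, smoke minus room air (vertical axis), for each CC chemokine (horizontal axis); squares use all 10 arrays and circles leave out room air 1, with bars of 1 standard error from limma. For Ccl2 the difference goes from 0.59 ± 0.70 to 1.42 ± 0.061, and for Ccl6 it is nearly the same in both.

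As the plot of differences shows, leaving out room air 1 moved every estimate by less than 1 log2 unit, while most standard errors became several times smaller. The standard error of Ccl3 was 0.51 with room air 1 and 0.098 without it, and that of Ccl9 0.45 and 0.11. For Ccl6 it was 0.15 in both fits. Ordered by the difference without room air 1, the called genes were Ccl9 (3.07), Ccl4 (2.38), Ccl3 (1.99), Ccl17 (1.95), Ccl8 (1.49), Ccl2 (1.42), Ccl7 (1.41) and Ccl6 (1.12). From the lung channel alone, with all arrays, Ccl6 differed by 2.56 after quantile normalization and by 2.73 after scaling to the 75th percentile. For Ccl9 these values were 2.65 and 2.81. These settings change the channel, the normalization and the arrays at once, so the order is given for the ratio only. The cause of the move of Ccl6 was not tested. Differences between genes were not tested.

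Each slide carried 1 smoke array and the room air array of the same number, so the groups could also be compared within slides. On all 5 slides smoke lay at position 1 and room air at position 2, so that an effect of position and one of exposure cannot be told apart. Within slides 2 to 5 the difference for Ccl9 was 3.01 to 3.18, and on slide 1, which held room air 1, it was 0.38. For Ccl2 it was 1.54, 1.35, 1.26 and 1.58 on slides 2 to 5 and -2.77 on slide 1. The sign was positive on 5 of 5 slides for Ccl6, Ccl8 and Ccl9, and on 4 of 5 for the other 7 chemokines, with slide 1 as the exception. Ccl20 gave 0.46, 0.80, 0.12 and 0.56 on slides 2 to 5 and -3.01 on slide 1. With the slide as a block, the same count of 3 chemokines was higher with smoke, against 7.48% of all genes. Over all genes the block raised the count of calls in either direction from 2271 to 3812.

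**Figure D3:**
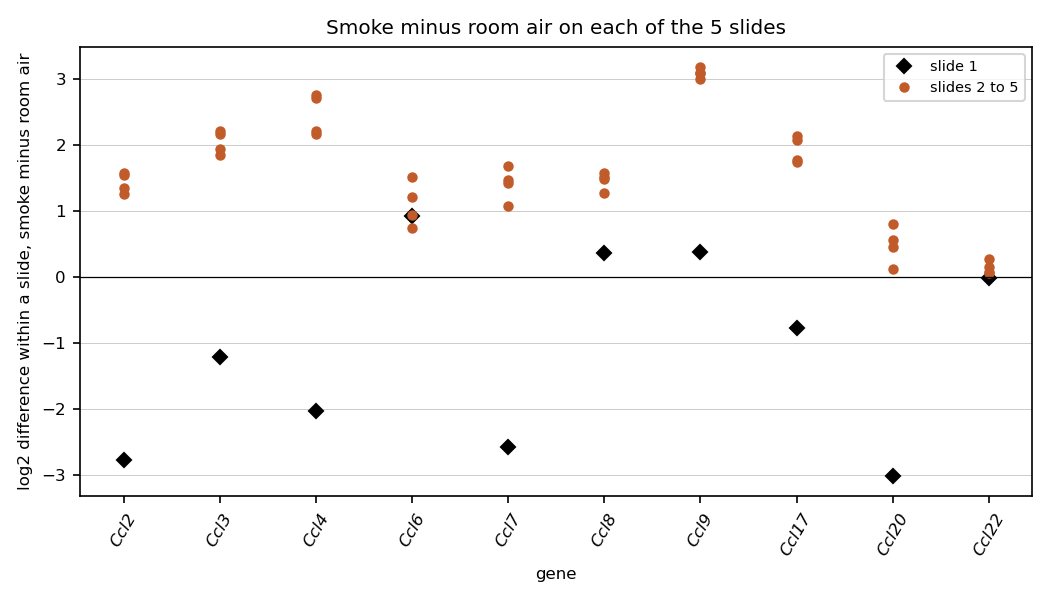
Log2 difference, smoke minus room air (vertical axis), between the 2 arrays of each slide for each CC chemokine (horizontal axis); diamonds are slide 1, which held room air 1, and circles slides 2 to 5. On slides 2 to 5 all points lie above 0, and on slide 1 they lie above 0 for Ccl6, Ccl8 and Ccl9, as in 0.93 for Ccl6.

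By the RefSeq annotation of GRCm38.p6, 7 of the 10 genes (Ccl2, Ccl3, Ccl4, Ccl6, Ccl7, Ccl8 and Ccl9) lie on chromosome 11, Ccl17 and Ccl22 on chromosome 8 and Ccl20 on chromosome 1. Among the 7 on chromosome 11 are the 3 called with all arrays and 4 of the 5 called only without room air 1. Promoter sequences, from 250 bases before to 50 bases after the start of the gene, were in the RefSeq table for 7 of 10, Ccl3, Ccl6, Ccl8, Ccl9, Ccl17, Ccl20 and Ccl22. They were searched on both strands for the NF-kB consensus GGGRNWYYCC and for the pattern TGANTCA, called the AP-1 motif here. In these, R is A or G, W is A or T, Y is C or T and N is any base. The NF-kB consensus was found in Ccl9 and Ccl20, 2 of 7, and in 4.51% of all 32851 promoters in the table; the AP-1 motif was found in Ccl9, 1 of 7, and in 7.81% of all. The promoters of Ccl9, with the largest difference in log2 ratio, of Ccl20, with no call and a high value in room air 1, and of Ccl8, called and without a match, are shown 5′ to 3′ along each gene's own strand with the matches in capitals. Ccl8 is at chr11:82114935-82115234 on the plus strand, Ccl9 at chr11:83578587-83578886 on the minus strand and Ccl20 at chr1:83116516-83116815 on the plus strand of GRCm38.p6.
Ccl8: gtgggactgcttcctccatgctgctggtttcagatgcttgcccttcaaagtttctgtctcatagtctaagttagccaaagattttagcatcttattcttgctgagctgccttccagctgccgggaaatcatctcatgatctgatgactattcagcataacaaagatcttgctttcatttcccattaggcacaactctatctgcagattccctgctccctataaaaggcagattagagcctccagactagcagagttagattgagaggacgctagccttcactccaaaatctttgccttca
Ccl9: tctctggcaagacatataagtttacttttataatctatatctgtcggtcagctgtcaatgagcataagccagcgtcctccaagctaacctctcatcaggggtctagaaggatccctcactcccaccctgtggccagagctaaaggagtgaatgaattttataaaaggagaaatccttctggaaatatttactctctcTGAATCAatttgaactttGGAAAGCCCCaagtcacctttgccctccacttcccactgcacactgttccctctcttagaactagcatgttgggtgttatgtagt
Ccl20: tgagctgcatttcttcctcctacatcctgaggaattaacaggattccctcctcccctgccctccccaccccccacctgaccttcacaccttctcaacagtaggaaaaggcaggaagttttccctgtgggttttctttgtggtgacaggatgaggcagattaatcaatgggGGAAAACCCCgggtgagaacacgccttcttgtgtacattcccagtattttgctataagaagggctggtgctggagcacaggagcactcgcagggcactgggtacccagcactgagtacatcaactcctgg
The letters GGAAAGCCCC of the NF-kB match in Ccl9 begin 35 bases before the start, the AP-1 letters TGAATCA begin 53 bases before it, and the 2 matches do not overlap. In Ccl20 the NF-kB letters GGAAAACCCC begin 80 bases before the start. The NF-kB letters of Ccl9 and of Ccl20 match the reverse complement of the consensus. A match describes the sequence only, and binding was not measured.

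Of the 9 other CC chemokines that the array measured, 0 were called higher (limma; 1 higher and 3 lower at an unadjusted p under 0.05) and 1, Ccl27a, an epithelial attractant of skin-homing T cells, was lower with smoke, against the 3.27% of all genes given above. Ccl27a had log2 ratios of 0.99, 0.91, 0.80, 1.05 and 0.62 in room air 1 to 5 and 0.32, 0.46, 0.46, 0.41 and 0.22 in smoke 1 to 5. All smoke lungs lay below all room air lungs, and the difference was -0.50 ± 0.084 (limma adjusted p = 0.00374). Ccl12, a further Ccr2 ligand of the mouse, had log2 ratios of 3.096, 0.029, 0.13, -0.047 and 0.55 in room air 1 to 5 and 1.68, 2.04, 1.80, 1.06 and 1.55 in smoke 1 to 5. Ccl19, the lymphoid ligand of Ccr7, had 5.15, 2.57, 2.57, 2.69 and 2.66 in room air and 3.71, 3.51, 3.77, 2.96 and 3.59 with smoke. In both, room air 1 was the highest array, and the smoke lungs lay above room air 2 to 5 without overlap. A second, dimmer probe of Ccl19 had smoke 4 at 2.14, below room air 3 at 2.28. Ccl12 and Ccl19 were called only without room air 1, Ccl12 with a difference of 1.46 ± 0.18 (limma adjusted p = 0.000417) and Ccl19 with 0.88 ± 0.14 (limma adjusted p = 0.00223). For Ccl5 (RANTES) the chosen probe gave -0.34 ± 0.12 (limma adjusted p = 0.128), and a second, dimmer probe gave -0.41 with an adjusted p of 0.0481, so the 2 probes lay on either side of the threshold.

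Of 10 CC chemokine receptors examined, 1 was higher with smoke, Ccr7, and 0 were lower (limma; 1 higher and 0 lower at an unadjusted p under 0.05), against 4.94% and 3.27% of all genes; the median difference was 0.060. Ccr7, which guides dendritic cells and T cells to lymph nodes, had log2 ratios of 2.38, 2.11, 2.20, 1.84 and 2.32 in room air 1 to 5 and 2.81, 2.68, 2.76, 2.33 and 2.48 in smoke 1 to 5. The smoke lungs were higher except smoke 4, which lay below room air 1 and just above room air 5. Ccr7 rose by 0.44 ± 0.12, or 1.36-fold (limma adjusted p = 0.0402), a call near the threshold that was lost on leaving out any 1 of 7 of the 10 arrays.

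Ccr2, the monocyte receptor of Ccl2 and Ccl7, had log2 ratios of 3.22, 1.85, 2.07, 1.93 and 1.84 in room air 1 to 5 and 2.55, 2.22, 3.21, 2.65 and 2.35 in smoke 1 to 5. Room air 1 was the highest array, level with smoke 3, and room air 2 to 5 lay below every smoke lung. Its difference was 0.42 ± 0.27 with all arrays (limma adjusted p = 0.500) and 0.67 ± 0.17 without room air 1 (limma adjusted p = 0.0280), and a second, dimmer probe gave 0.041 and 0.11. Ccr1, the receptor of Ccl6 and Ccl9, was not well above background on any array. For Ccr4, Ccr6 and Ccr8, the receptors of Ccl17, Ccl20 and Ccl8, the differences were 0.084 ± 0.059, 0.16 ± 0.22 and 0.066 ± 0.094, none of them called, and the lung signal of Ccr4 was well above background on 3 of 10 arrays and that of Ccr8 on 1 of 10. Among the 5 atypical receptors, which bind chemokines without classical signalling, 0 were called with all arrays (limma; 0 higher and 2 lower at an unadjusted p under 0.05), and with the slide as a block 2, Ackr3 and Ackr4, were called lower, against 6.30% of all genes. Ackr1, the erythroid and venular binder of many CC chemokines, was called only without room air 1, with a difference of 0.58 ± 0.079 (limma adjusted p = 0.000801) by 1 of its 2 probes, and Ackr2, a scavenger of inflammatory CC chemokines, gave -0.24 ± 0.20 (limma adjusted p = 0.653).

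**Figure D4:**
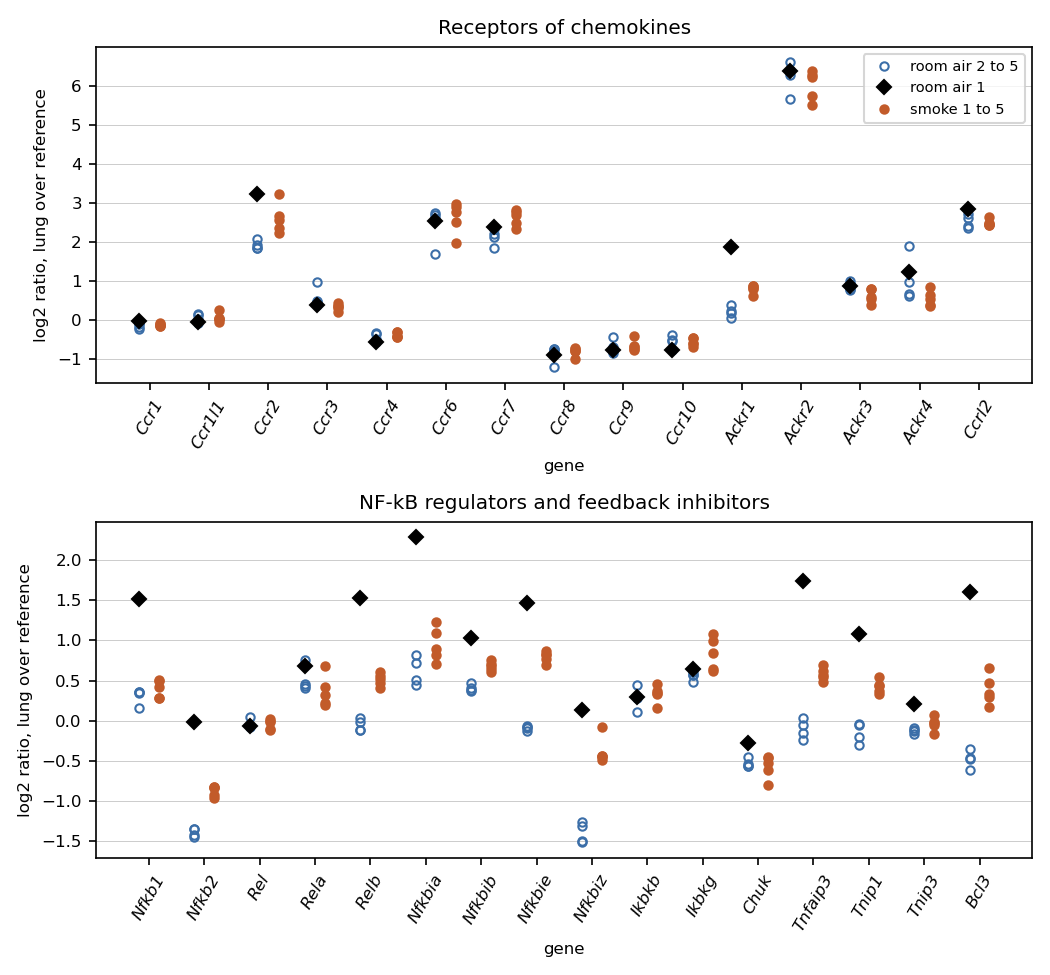
Log2 ratio of lung over reference (vertical axes) in each array for receptors of chemokines (upper panel) and for NF-kB regulators and feedback inhibitors (lower panel), with the gene on the horizontal axes; open circles are room air 2 to 5, diamonds room air 1 and filled circles smoke 1 to 5. In the lower panel the diamond is the highest of the room air arrays for 13 of 16 genes, against 25% of all genes.

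NF-kB regulators and feedback inhibitors, genes that control NF-kB or are its own targets, had room air 1 above every smoke lung for 12 of 16, against 24.7% of all genes, as the lower panel of the plot of receptors and NF-kB genes shows. With all arrays 0 of 16 were called (limma, with 2 higher and 0 lower at an unadjusted p under 0.05), where 4.94% of all genes were higher and 3.27% lower. Without room air 1, 8 of 16 were higher with smoke and 0 lower, where 6.21% of all genes were higher. Of the 3 dimmer probes of Ikbkg, 2 were called higher with all arrays, without overlap (differences of 0.30 and 0.29, adjusted p = 0.0152 and 0.0412 in limma), while the brightest was not (limma adjusted p = 0.121). The median difference was 0.19 with all arrays and 0.30 without room air 1. Nfkbie, an inhibitor of NF-kB, had log2 ratios of 1.47, -0.076, -0.12, -0.070 and -0.087 in room air 1 to 5 and 0.76, 0.87, 0.82, 0.69 and 0.83 in smoke 1 to 5. Room air 1 was the highest array, and the smoke lungs lay well above room air 2 to 5. Nfkbie differed by 0.88 ± 0.049 without room air 1 (limma adjusted p = 1.21e-06) and Tnfaip3 (A20), a feedback inhibitor, by 0.69 ± 0.066 (limma adjusted p = 7.33e-05). The other 6 genes called then were Nfkb2, Relb, Nfkbib, Nfkbiz, Tnip1 and Bcl3, with differences of 0.27 to 1.01. Room air 1 exceeded the other room air lungs by a median of 1.22 over the 16 genes and by 2.07 for Bcl3.

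Of 11 cytokines known to induce CC chemokines, 0 were called with all arrays (limma; 0 higher and 0 lower at an unadjusted p under 0.05) and 4 were higher with smoke without room air 1, against 4.94% of all genes higher and 3.27% lower with all arrays and 6.21% higher without room air 1. Csf2 (GM-CSF), which sustains alveolar macrophages, had log2 ratios of 4.02, 1.43, 1.47, 1.17 and 1.41 in room air 1 to 5 and 2.65, 2.88, 2.94, 2.57 and 2.62 in smoke 1 to 5. The smoke lungs lay between room air 2 to 5 and room air 1. Csf2 differed by 1.37 ± 0.093 without room air 1 (limma adjusted p = 5.28e-06), Tnf by 0.77 ± 0.11 (limma adjusted p = 0.00155), Il1b by 0.67 ± 0.13 (limma adjusted p = 0.00728) and Il33, an epithelial alarmin, by 0.39 ± 0.086 (limma adjusted p = 0.0160). In room air 1, Il1b exceeded the other room air lungs by 3.31 and Tnf by 2.90. Il6 was well above background in the lung channel on 1 room air and 1 smoke array only, and Il17a on 1 room air and 2 smoke arrays. The T cell cytokines Il4, Il13, Ifng and Il17a gave differences of -0.20 to 0.078, none of them called, and with the slide as a block Ifng alone was called lower.

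Markers of cell types that make or follow these chemokines were examined in each array. Of 12 measured markers of alveolar macrophages, 7 were higher with smoke and 0 lower, against 4.94% and 3.27% of all genes, and 6 of the 7 exceeded 2-fold (Marco, Chil3, Itgax, Mrc1, Cd68 and Plet1). The other 5 were not called: Siglecf, Ear1, Car4, Fabp4 and Krt79, with differences of 0.25, 0.012, -0.094, -0.25 and 0.35. The summed lung-channel intensity of the 12 was 45190, 41990, 46130, 40490 and 41340 in room air 1 to 5 and 130300, 131800, 138100, 118000 and 137100 in smoke 1 to 5, with Chil3 the brightest gene. The sum of room air 1 lay with those of the other room air lungs, and the median excess over the 12 markers was 0.10 log2 units. For 2 markers room air 1 was over 1 log2 unit above the other room air lungs, Marco by 2.02 and Fabp4 by 1.15, where this held for 1.19% of all genes. Of 10 measured markers of monocytes and interstitial macrophages, 8 were higher with smoke, against 4.94% of all genes, Adgre1, C1qb and Ms4a7 by over 2-fold; their summed intensity was 27090, 9715, 9029, 8328 and 9987 in room air 1 to 5 and 27670, 30790, 25870, 26370 and 29320 in smoke 1 to 5, with Cd14 the brightest. The sum in room air 1 lay within the range of the smoke lungs, and Cd14 was the only 1 of the 10 markers over 1 log2 unit above the other room air lungs there, by 3.74, where the median excess was 0.23. Adgre1, Cx3cr1, Csf1r and Ms4a7 in room air 1 were below the mean of the other room air lungs. A second, dimmer probe of Adgre1 was not called, at 0.29 (limma adjusted p = 0.102). Dimmer probes of Cx3cr1 (0.090, limma adjusted p = 0.337), Fcgr1 (0.39, limma adjusted p = 0.0718) and Csf1r (0.19, limma adjusted p = 0.231) were not called either. A further dimmer probe of Csf1r and that of Ms4a7 were called higher.

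The summed signal of neutrophil markers was highest in room air 1. Of 13 measured, 4 were higher with smoke with all arrays, Mmp8 and Il1r2 by over 2-fold, against 4.94% of all genes, and 6 without room air 1, against 6.21%. Their summed intensity was 117400, 24550, 18900, 20980 and 28110 in room air 1 to 5 and 56250, 43060, 32940, 37280 and 39110 in smoke 1 to 5, with S100a9 the brightest gene. Room air 1 was the highest room air lung for 11 of the 13, against 25% of all genes. It exceeded the mean of the others by over 1 log2 unit for 9, against 1.19% of all genes. It was above every smoke lung for 8, against 24.7% of all genes. The granule marker Ngp was well above background on 1 of 10 arrays, and Cxcr1 on 0 room air and 5 smoke arrays. For Cxcr1 the log2 ratios of the room air lungs lay between 0.010 and 0.12, with the lung signal near background, so their order is not interpreted. The part of these cells in the chemokine values of the smoke lungs and of room air 1 was not tested.

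**Figure D5:**
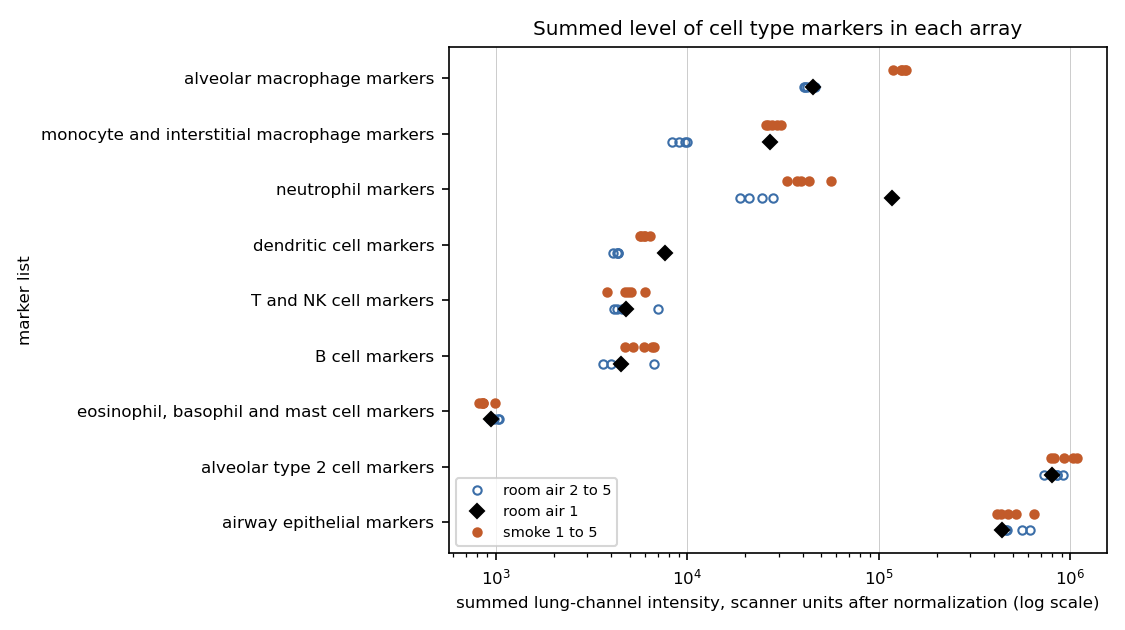
Summed lung-channel intensity after normalization (horizontal axis, scanner units, log scale) of the measured genes of each cell type marker list (vertical axis) in each array; open circles are room air 2 to 5, diamonds room air 1 and filled circles smoke 1 to 5. For neutrophil markers room air 1 is at 117400 and the smoke lungs at 32940 to 56250, while for alveolar macrophage markers room air 1 lies with the other room air lungs.

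The other marker lists are also drawn in the plot of summed marker intensity, and their counts stand against 4.94% of all genes higher and 3.27% lower. Of 12 dendritic cell markers, 4 were higher with smoke, Flt3, Itgae, Fscn1 and Cacnb3, none by 2-fold. None was called lower (limma, with 5 higher and 2 lower at an unadjusted p under 0.05). With the slide as a block 5 were higher and 2, Zbtb46 and Siglech, lower, against 7.48% and 6.30% of all genes. The summed intensity of the 12 was 7648, 4063, 4366, 4296 and 4333 in room air 1 to 5 and 6037, 5925, 5756, 5671 and 6397 in smoke 1 to 5, with Cd83 the brightest. For 1 of the 12, Cd83, room air 1 was over 1 log2 unit above the other room air lungs, by 1.98, where this held for 1.19% of all genes. The median excess over the 12 was 0.063. Of 13 T and NK cell markers, 1 was higher, Il7r, by 1 of its 3 probes, and 1 lower, Prf1, with sums of 4796 in room air 1, 4160 to 7024 in room air 2 to 5 and 3785 to 5988 with smoke. Of 9 B cell markers, 1 was higher, Cd22, with sums of 4480 in room air 1, 3620 to 6673 in room air 2 to 5 and 4727 to 6720 with smoke. Of 9 markers of eosinophils, basophils and mast cells, 1 was lower, Cma1 (limma adjusted p = 0.0480). Without room air 1 this call was lost (limma adjusted p = 0.0575), while a second, dimmer probe of Cma1 was called lower in both fits. The sums of this list were 944 in room air 1, 929.2 to 1035 in room air 2 to 5 and 814.2 to 984.7 with smoke. Il5ra was not well above background on any array. None of the 8 alveolar type 2 markers (brightest Sftpc) and none of the 7 airway epithelial markers (brightest Scgb1a1) passed (limma, with 0 and 0 higher, 0 and 0 lower at an unadjusted p under 0.05), and without room air 1 the mucin gene Muc5b was higher. Room air 1 was over 1 log2 unit above the other room air lungs for 2 of the 7 airway markers and 0 of the 8 alveolar type 2 markers. The median excess was 0.35 and 0.087. Of 6 lung identity genes, all well above background in the lung channel, 1, the endothelial Pecam1, was lower, with a difference of -0.41 (limma adjusted p = 0.0488), by 1 of its 2 probes.

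For each called chemokine, the 3 genes with the most similar pattern over the 10 arrays were taken among 18995 genes well above background. Ccl9 was followed most closely by Ch25h, cholesterol 25-hydroxylase, with a Pearson r of 0.995 over 10 arrays and 0.997 without room air 1. Lcn2, a neutrophil and epithelial protein, and Cd302, a lectin receptor of myeloid cells, both had an r of 0.992 with Ccl9. For Ccl8 the closest were Cd302 (0.993), Proz (0.989) and Ccdc88b (0.987), and for Ccl6 they were Mmp19 (0.988), Npy (0.981) and H2-DMa (0.973). Since the arrays fall into groups by exposure, these coefficients reflect the difference between groups as well as the order within them. Among the chemokines themselves, Ccl3 and Ccl4 had an r of 0.992 and Ccl2 and Ccl7 of 0.987 over the 10 arrays, and Ccl6 and Ccl20 of 0.014. Without room air 1 these values were 0.994, 0.962 and 0.533.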

How the data were processed

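Whole-lung RNA of 10 mice was measured on 2-colour Agilent arrays, 1 array per mouse. Per the file headers, Feature Extraction 9.5.3.1 made the deposited intensity values, as spot and background signals and as background-subtracted, dye-normalized signals, and the deposited log10 ratio of red over green. The authors' deposited table holds log2 values, which equal the mean log2 of both channels (median minus background median). The labels name 1 colour; the design had allowed for 2. Of 4 Y-chromosome genes, Ddx3y, Eif2s3y and Kdm5d were well above background in green on 10 of 10 arrays (in red on 2, 0 and 1) and Uty in neither channel, and lung genes were brighter in red, so red was taken as the female lung.

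Red and green were computed anew with normexp (offset 50) and loess, and spots that the scanner software marked as non-uniform or outlying were set aside. Spots of a probe were averaged, and limma 3.58.1 in R 4.3.3 compared smoke with room air, two-sided, with Benjamini-Hochberg adjustment over 41173 probes. The probe brightest in red stood for its gene. The members and lists were chosen with earlier results of these data known; genes outside the lists were named only by similarity of pattern, by fold change or as smoke-responsive genes.

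Per the file headers, each slide held 1 array of each group with equal replicate numbers. For numbers 2 to 5 these 2 arrays deviated together from their group means (r of 0.488, 0.469, 0.588 and 0.39). Between different numbers the median r was -0.102 and the highest 0.224. For number 1, the slide with room air 1, r was 0.179, below that highest value. Alternatives were the exact Wilcoxon test, the slide as a block, leaving out each array, other background, scaling, channel, filter, probe and threshold choices, and the authors' table as labelled. With 5 mice per group and 1 reference without dye exchange, dye effects of single probes could not be separated. Promoters of Ccl2, Ccl4 and Ccl7 were not in the table. Ccl21a, Ccl26, Ear2, Ly6c2, Ly6g and Trac matched no probe, and 2 genes of the lists are not reported here.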

Additional observations from a re-analysis of the deposited data

Results flagged for a closer look

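Each of 34 chemokine and receptor genes was examined in each group of 5 arrays, 68 groups in all, for a value set off from the other 4 by more than 0.71 of the range of the group. By chance about 1 in 20 groups has such a value, if the groups are independent. Many of these genes vary together over the same arrays, so the groups are not independent and their count was not tested against that rate. Such a value was found in 18 groups, and in 13 of them the value was that of room air 1, as the highest of the room air lungs.

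Among the 10 CC chemokines, the log2 ratios of room air 1 set apart in this way were -0.035 for Ccl2, -0.43 for Ccl3, 1.02 for Ccl4, 0.094 for Ccl7, 2.56 for Ccl8, 1.74 for Ccl9, 3.79 for Ccl17 and 3.85 for Ccl20. Among the other genes examined they were 3.096 for Ccl12, 5.15 for Ccl19, -1.41 for Ccl24, 3.22 for Ccr2 and 1.87 for Ackr1. The gap made up 0.967 of the range for Ccl2 and 0.75 for Ccl24, the widest and the narrowest of the 13.

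The other 5 values came from 5 different arrays. Ccr3 had 0.96 in room air 5, the highest of its group. Ccr6 had 1.69 in room air 4, the lowest of its group. Ccr8 had -1.01 in smoke 3, the lowest of its group. Ccr9 had -0.42 in smoke 4, the highest of its group. Ccrl2 had 2.63 in smoke 1, the highest of its group. In all except Ccr3, the other array of the slide was extreme in its own group on the same side. It had 1.97 for Ccr6 (smoke 4), -1.23 for Ccr8 (room air 3), -0.43 for Ccr9 (room air 4) and 2.84 for Ccrl2 (room air 1). For Ccr3, smoke 5 was the lowest smoke array, at 0.19.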

How the results depend on the processing

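With limma and all 10 arrays, 2906 probes, 2271 genes, 3 of 10 CC chemokines and 1 of 10 CC chemokine receptors were called. Over 20 settings that start from the scanner files and their labels, the difference of Ccl6 was 0.76 to 2.73, that of Ccl8 1.15 to 1.51 and that of Ccl9 2.36 to 3.07. These 3 genes stayed past the threshold in 19 of the 20. The authors' table, given last, is not among the 20.

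The exception among the 20 was the exact Wilcoxon test, with 0 probes, 0 genes, 0 chemokines and 0 receptors called. With 5 arrays against 5 its smallest two-sided p is 0.00794, and 5446 probes had an unadjusted p under 0.05.

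With the slide as a replicate block, 5019 probes and 3812 genes were called. The counts of 3 chemokines and 1 receptor were unchanged. The block added 2 atypical receptors and 1 cytokine, and it changed no other call among the listed chemokines and receptors. Among the cell markers it added Cd3d, Cd3g, Ltf, Batf3, Sftpd and Muc5b as higher and Zbtb46 and Siglech as lower, and no marker call was lost.

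Leaving out 1 array at a time gave 2102 to 3660 probes, 1672 to 2856 genes, 3 to 8 chemokines and 0 to 2 receptors, with 0 receptors on leaving out any 1 of 7 arrays. The 8 chemokines and 2 receptors came without room air 1, and leaving out any other array kept the count of chemokines at 3. Of the 9 other CC chemokines, 1 was called with all arrays, 3 without room air 1 and 2 without room air 3. The difference of Ccl20 ranged from -0.43 to 0.48 over these fits, and it was positive, 0.48, only without room air 1.

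Of the receptors, 0 were called with a normexp offset of 10, with the scanner software's log ratio and with the red signal scaled to its 75th percentile, and the cause was not tested. At an adjusted p under 0.01, 0 were called, since that of Ccr7 is 0.0402. The red signal scaled in this way gave 1759 probes and 1361 genes, and the stricter threshold 1428 probes and 1147 genes.

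Ccl20 turned positive, at 0.29, with the scanner log ratio and also at 0.29 with the scaled red signal. Ccl22 turned negative, at -0.35 with the scaled red signal and at -0.013 with the quantile-normalized red channel. Neither gene was called in any setting, and the cause was not tested.

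In the authors' table with its columns as labelled, 12 probes, 11 genes, 1 chemokine and 0 receptors were called. The differences there were -0.30 for Ccl2, -0.78 for Ccl3, -0.90 for Ccl4, -2.33 for Ccl6, -0.55 for Ccl7, -0.66 for Ccl8, -1.33 for Ccl9 and -0.89 for Ccl17, opposite in sign to those above, and -0.29 for Ccl20, of the same sign. Of Ccl6, Ccl8 and Ccl9, only Ccl6 was called there. That table averages both channels and holds each array under the other group. The cause of the smaller counts was not tested.

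Signal over background limits what can be said of Ccl22, which was well above background in red on 2 of 10 arrays, and of the receptors, of which 5 of 10 were so on at least 5 arrays.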
